A study of Drosophila melanogaster with 82 samples.

Results

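The genes HDAC3 (transcript FBtr0078767), SuUR (FBtr0076203) and kis (FBtr0078144) of Drosophila melanogaster were followed as translating messenger RNA in 7 tissues on 2 foods. They were chosen by name as chromatin genes, with the transcript identifiers given here, and make up 3 of the array's 16637 transcripts. The choice was made with earlier results of these data known. Each transcript was measured by 8 probes. The 82 arrays fell into 14 groups of adult females aged 13 days after 10 days on their food, which was restricted (DR, 0.5% yeast extract) or rich (AL, 5% yeast extract). Tubule, neuron, muscle, heart, gut, germ line and fat body each had DR and AL arrays, with 1 pool of flies per array and 6 pools per group, except 5 pools in heart AL and neuron AL.

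Flies of all 14 groups carried UAS-RpL13A-His6FLAG, which adds a tagged copy of a ribosomal protein, and 1 GAL4 driver that sets where the copy is made. The drivers were S106-GS-GAL4 for fat body, NGT-GAL4 for germ line, MYOIA-GAL4 for gut, HAND4.2-GAL4 for heart, MHC-GAL4 for muscle, C155-GAL4 for neuron and C42-GAL4 for tubule. Tagged ribosomes were pulled down from pools of 100 flies, or 200 for the neuron line, so each tissue stands for the cells in which its driver is active. S106-GS-GAL4 is a GeneSwitch form, which works with an inducing drug, and the use of one is not given in the sources used here. None of the cell type markers looked for was named on the array, so the tissue labels were not checked against markers.

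Chromatin packs DNA on histone proteins, and enzymes that modify histones or move nucleosomes set which genes can be read. HDAC3 is a class I histone deacetylase, which removes acetyl groups from histones as part of SMRTER corepressor complexes. SuUR (Suppressor of UnderReplication) binds late-replicating and silent chromatin and holds back its copying in polyploid cells such as those of the salivary gland. Follicle and nurse cells of the ovary and the enterocytes of the gut are also polyploid. kis (kismet) is a nucleosome remodeller of the CHD family and a trithorax group gene, which opposes Polycomb silencing and promotes elongation by RNA polymerase II.

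Levels are given as the mean log2 intensity of a transcript's 8 probes, on the scale of the deposited values where foods are compared within a tissue. A change is the log2 level on DR minus that on AL. Its standard error (SE) comes from 1 limma model of all 82 arrays, and p-values were adjusted over all 16637 transcripts. That model uses 1 spread for all groups of a transcript, although group SDs differed, as for kis with 0.04 in heart DR and 0.44 in neuron DR. Its p-values can therefore be too low in groups of wide spread and too high in groups of narrow spread. A change with an adjusted p below 0.05 is said to have risen or fallen. Intensities of pulled-down RNA cannot tell fewer cells of a type, or fewer tagged ribosomes, from less RNA per cell. The deposited arrays of a tissue share nearly 1 distribution of intensities. A change is therefore relative to the tissue's other transcripts and does not measure the total RNA yield.

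On restricted food HDAC3 fell in 6 of the 7 tissues, SuUR in 5 and kis in 2, and none of the 3 rose in any tissue in the model without array weights. The median of the 7 changes was −0.44 for HDAC3, −0.35 for SuUR and −0.07 for kis. Averaged over the 7 tissues, the change was −0.53 (SE 0.039, adjusted p = 1.76e-20) for HDAC3. The same mean was −0.53 (SE 0.049, adjusted p = 6.80e-16) for SuUR, and −0.13 (SE 0.040, adjusted p = 0.0028) for kis. Of all transcripts, 39.4% had a mean that fell in this test. Falls in at least 5 tissues, as seen for HDAC3 and SuUR, were called for 13.4% of transcripts.

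**Figure D1:**
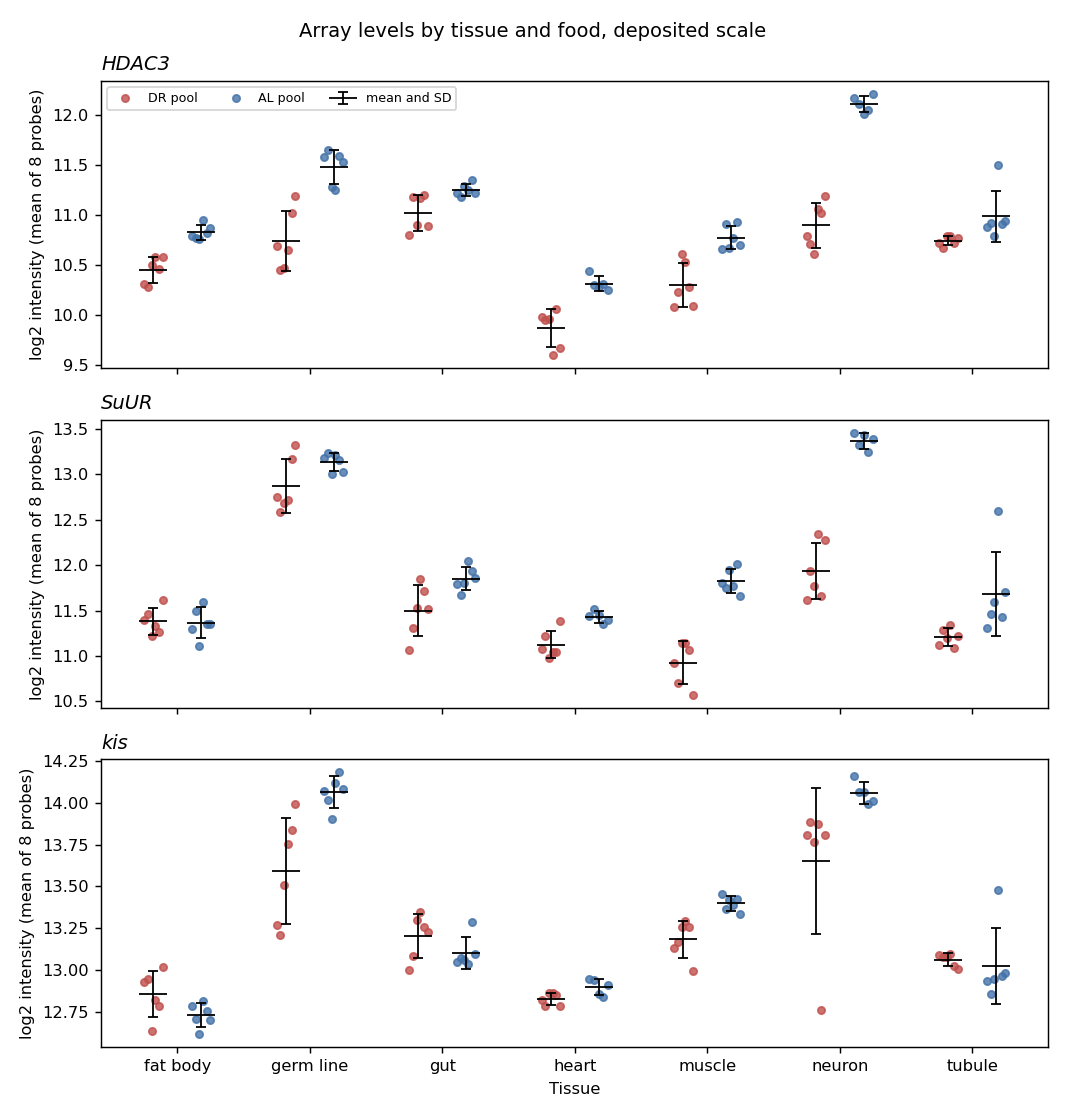
Log2 intensity (vertical axes, mean of 8 probes, deposited scale) of HDAC3, SuUR and kis in each pool, by tissue (horizontal axis) and food. Points are pools, with DR left of AL in each tissue, and bars are the mean and SD. The neuron pools of HDAC3 and SuUR on DR lie wholly below those on AL.

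Germ line DR pool 6 was the array least like the rest of its group. The median correlation of an array with the other arrays of its group was 0.852 for that pool. It was 0.942 for muscle DR pool 4 and 0.945 for neuron DR pool 5, against 0.947 to 0.996 for the other 79 arrays. The value of 0.947, close to that of neuron DR pool 5, was from germ line DR pool 5. Germ line DR pools ran from 0.852 to 0.9835, and germ line AL pools from 0.9815 to 0.9914. Tubule AL pool 4, at 0.968 against at least 0.994 for the other tubule AL arrays, held the highest value of its group for all 3 genes. Several changes in the tissues of these arrays are also given without them. The orders of tissue means below include all arrays. On every array, all 656 probe values of each gene lay above the 95th percentile of that array's 4100 random-sequence control probes.

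HDAC3 fell most in the neuron samples. Its log2 level in the 6 neuron DR pools ran from 10.61 over a median of 10.90 to 11.19. The 5 neuron AL pools had 12.17, 12.11, 12.003, 12.05 and 12.20. Every DR pool lay below every AL pool by a wide gap. The change was −1.21 (SE 0.106, adjusted p = 9.49e-17), a 2.31-fold lower intensity on DR. In the neuron, 37.6% of all transcripts fell, and every DR pool lay below every AL pool for 28.0% of them. A lower change than that of HDAC3 was measured for 11.97% of transcripts, and the median change in its level decile (10 equal groups of transcripts by mean level in the tissue) was −0.44. In that decile 55.9% of transcripts fell.

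In the germ line, HDAC3 levels on DR ran from 10.45 over a median of 10.67 to 11.19. On AL the germ line pools ran from 11.25 over 11.56 to 11.64. The groups did not overlap, and the change was −0.73 (SE 0.101, adjusted p = 8.26e-09), or 1.66-fold lower. Germ line DR pool 6 held the highest DR level. Without that pool the change was −0.82 (adjusted p = 1.29e-10), and after cyclic loess within the tissue −0.45 (adjusted p = 2.91e-07). A fall was called for 36.8% of transcripts in the germ line, and 8.11% had no overlap in that direction. The median change in HDAC3's level decile was −0.31 there, and 50.4% of that decile fell.

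The other 3 tissues without overlap were muscle, heart and fat body. In muscle, HDAC3 on DR ran from 10.09 over a median of 10.26 to 10.61, against 10.67 over 10.74 to 10.93 on AL, and the change was −0.47 (SE 0.101, adjusted p = 0.000101). In heart it ran from 9.60 over 9.96 to 10.06 on DR, against 10.44, 10.30, 10.28, 10.32 and 10.25 on AL, with a change of −0.44 (SE 0.106, adjusted p = 0.000392). In fat body, DR pools ran from 10.28 over 10.48 to 10.58 and AL pools from 10.76 over 10.80 to 10.95, with a change of −0.37 (SE 0.101, adjusted p = 0.00201). In these 3 tissues HDAC3 was 1.38-, 1.36- and 1.29-fold lower on DR. Falls were called for 27.3% of transcripts in muscle, 27.1% in heart and 17.3% in fat body, and separated groups in that direction were found for 18.2%, 26.9% and 11.1%. The median change in HDAC3's level decile was −0.32 in muscle, −0.34 in heart and −0.10 in fat body. In that decile 49.7% of transcripts fell in muscle, 46.45% in heart and 29.3% in fat body. After cyclic loess the change was −0.18 (adjusted p = 0.0374) in muscle and −0.17 (adjusted p = 0.0555) in heart. With the median of the probes it was −0.22 (adjusted p = 0.135) in fat body.

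The remaining tissues showed the smallest HDAC3 differences. Tubule DR pools ran from 10.67 over a median of 10.75 to 10.79, against 10.79 over 10.91 to 11.50 on AL. This change of −0.24 (SE 0.101, adjusted p = 0.048) rested on tubule AL pool 4, without which it was −0.14 (adjusted p = 0.297), and the call was also lost without 7 other single pools. Falls were called for 19.4% of transcripts in the tubule and for 35.5% of those in HDAC3's level decile. Gut pools overlapped, with 10.80 over 11.03 to 11.20 on DR and 11.18 over 11.23 to 11.34 on AL. The gut change of −0.23 (SE 0.101) had an adjusted p of 0.0727, in a tissue in which 17.8% of transcripts fell.

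SuUR had the greatest single change of the 3 genes, again in the neuron. Its neuron DR pools ran from 11.62 over a median of 11.86 to 12.34. The 5 neuron AL pools had 13.45, 13.32, 13.43, 13.25 and 13.39. All DR pools lay below all AL pools, with a change of −1.43 (SE 0.135, adjusted p = 1.72e-15), or 2.70-fold lower on DR. A lower change was measured for 8.45% of transcripts in the neuron, and the median change in SuUR's level decile was −0.39. In that decile 56.4% of transcripts fell, against 37.6% of all transcripts in the neuron. Every DR pool lay below every AL pool for 28.0% of all transcripts. Without neuron DR pool 5 the change was −1.38.

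Muscle came next for SuUR. Its DR pools ran from 10.58 over a median of 11.00 to 11.14, against 11.66 over 11.79 to 12.02 on AL, again without overlap. The change was −0.90 (SE 0.129, adjusted p = 2.56e-08), or 1.87-fold lower, and 7.35% of transcripts had a lower one. The median change in SuUR's level decile was −0.27, and 48.6% of that decile fell. Of all transcripts in muscle, 27.3% fell and 18.2% had every DR pool below every AL pool. Without muscle DR pool 4 the change was −0.94. It was −1.37 with the 4 later probes and −0.43 with the 4 earlier probes, and called with both.

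In tubule, gut and heart SuUR fell by less, and the groups overlapped. Tubule DR pools ran from 11.09 over a median of 11.21 to 11.34, against 11.31 over 11.52 to 12.59 on AL. The change of −0.47 (SE 0.129, adjusted p = 0.00185) was −0.29 (adjusted p = 0.042) without tubule AL pool 4. Gut DR pools ran from 11.07 over 11.53 to 11.85, against 11.67 over 11.83 to 12.05 on AL, a change of −0.35 (SE 0.129, adjusted p = 0.0247). This gut call was lost without gut AL pool 4 (adjusted p = 0.0632), DR pool 1 (0.118) or DR pool 2 (0.062), and the change was −0.22 with the 4 later probes (adjusted p = 0.375). Heart DR pools ran from 10.98 over 11.06 to 11.39, against 11.44, 11.52, 11.45, 11.35 and 11.39 on AL. The heart change of −0.31 (SE 0.135, adjusted p = 0.0499) lay at the threshold and was lost in 9 of 11 removals of a single pool, with adjusted p up to 0.0956. After cyclic loess it was −0.12 (adjusted p = 0.432), and with the median of probes −0.12 (adjusted p = 0.583). In the fit of the heart arrays alone the heart change was −0.31, with an adjusted p of 0.00412.

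SuUR missed the threshold in germ line and fat body. Germ line DR pools ran from 12.59 over a median of 12.73 to 13.32, and AL pools from 13.00 over 13.17 to 13.24, with a change of −0.26 (SE 0.129, adjusted p = 0.061). The highest DR value exceeded every AL value. Without germ line DR pool 6 the change was −0.35 (adjusted p = 0.0128), and without DR pool 5 it was −0.32 (adjusted p = 0.027). With array weights it was −0.45 (adjusted p = 3.02e-13), but after cyclic loess it was −0.0068 (adjusted p = 0.966) and with the 4 earlier probes −0.026 (adjusted p = 0.861). Fat body DR pools ran from 11.22 over 11.37 to 11.62 and AL pools from 11.11 over 11.35 to 11.60, and the change was 0.02 (SE 0.129, adjusted p = 0.946).

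kis, the brightest of the 3 transcripts on the array, fell in the germ line and the neuron. Germ line DR pools ran from 13.21 over a median of 13.63 to 13.99, against 13.90 over 14.08 to 14.18 on AL. The DR pools were more spread, and the highest of them overlapped the AL range. The change was −0.47 (SE 0.104, adjusted p = 9.45e-05), or 1.38-fold lower, and −0.55 (adjusted p = 5.80e-06) without germ line DR pool 6. It was −0.72 with the 4 later probes and −0.22 with the 4 earlier probes, and called with both. A lower change was measured for 25.9% of transcripts in the germ line, and the median change in the level decile that holds kis was −0.17. In that decile 43.9% of transcripts fell, against 36.8% of all transcripts in the germ line.

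In the neuron, kis levels on DR ran from 12.76 over a median of 13.81 to 13.88. The AL pools had 14.16, 14.06, 14.06, 13.99 and 14.01. The groups did not overlap, and the change of −0.41 (SE 0.109, adjusted p = 0.000709) was the mean of 5 pools near the top of the DR range and pool 5 at its bottom. Without that pool the change was −0.23 (adjusted p = 0.0177). In the fit of the neuron arrays alone the change was also −0.41, with an adjusted p of 0.0836. Lower changes were measured for 34.7% of transcripts in the neuron, and the median change in the level decile that holds kis was −0.11. In that decile 43.9% of transcripts fell, against 37.6% of all transcripts in the neuron. Every DR pool lay below every AL pool for 28.0% of all transcripts.

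In the other 5 tissues kis changes lay between −0.21 and 0.12 and missed the threshold. In muscle all DR pools, from 13.00 over a median of 13.21 to 13.29, lay below all AL pools, from 13.34 over 13.41 to 13.45, with a change of −0.21 (SE 0.104, adjusted p = 0.0721). Groups were separated in that direction for 18.2% of transcripts in muscle. Heart DR pools ran from 12.79 over 12.84 to 12.87, against 12.95, 12.94, 12.86, 12.84 and 12.91 on AL, with a change of −0.07 (SE 0.109, adjusted p = 0.603). In fat body the range on DR was 12.64 to 13.02 and on AL 12.62 to 12.82 (change 0.12, adjusted p = 0.38). In gut it was 13.00 to 13.35 on DR and 13.04 to 13.29 on AL (change 0.10, adjusted p = 0.481). In tubule it was 13.01 to 13.10 on DR and 12.86 to 13.48 on AL (change 0.04, adjusted p = 0.837), and without AL pool 4 the change was 0.13 (adjusted p = 0.39). With array weights kis was called higher on DR in gut (0.17, adjusted p = 0.00995) and tubule (0.12, adjusted p = 0.0158).

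**Figure D2:**
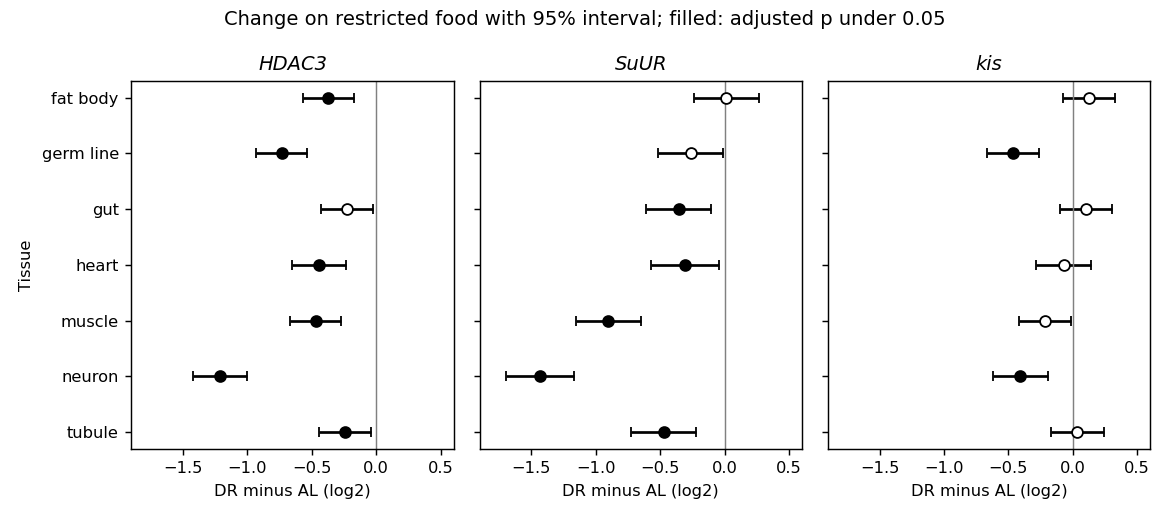
Change on restricted food (horizontal axes, DR minus AL, log2) of HDAC3, SuUR and kis in each tissue (vertical axis), with its 95% interval from the limma model of all arrays. Filled points have an adjusted p below 0.05 and the vertical line marks no change. HDAC3 has 6 filled points, SuUR 5 and kis 2, all left of the line.

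The size of the change differed between tissues for each gene. The F test of a difference among the 7 tissues gave F = 10.9 (adjusted p = 4.49e-08) for HDAC3, F = 13.4 (adjusted p = 1.81e-09) for SuUR and F = 5.25 (adjusted p = 0.000248) for kis. That test passed for 90.0% of transcripts, so passing it does not set these genes apart. Over the 21 pairs of tissues the change differed in 9 for HDAC3, 11 for SuUR and 6 for kis, against 36.5% of all tests over the same pairs.

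Of these 26 differences, 15 kept their call under every alternative and every removal of 1 pool. For HDAC3, the neuron change was lower than that of each of the other 6 tissues. Neuron minus tubule was −0.97 (SE 0.147, adjusted p = 7.06e-08) and germ line minus neuron 0.48 (SE 0.147, adjusted p = 0.00419). This germ line minus neuron difference was 0.08 (adjusted p = 0.716) after quantile normalization over all arrays and 0.27 (adjusted p = 0.213) with the 4 earlier probes. The germ line change was also lower than those of fat body, gut and tubule, but none of these 3 was called with the 4 later probes (adjusted p = 0.229, 0.119 and 0.127). Fat body minus germ line was also lost after cyclic loess (0.11, adjusted p = 0.424) and in 8 of 24 removals of 1 pool. For SuUR, the neuron again differed from all 6 other tissues, with muscle minus neuron at 0.53 (SE 0.187, adjusted p = 0.0117). With the 4 later probes muscle minus neuron was 0.46 (adjusted p = 0.122), no longer called. The muscle change of SuUR was lower than those of fat body, germ line, gut and heart, and fat body minus tubule was 0.49 (SE 0.182, adjusted p = 0.0466). Fat body minus tubule was no longer called on the scale shared by all arrays (adjusted p = 0.104), with the median of probes (0.141), the 4 later probes (0.2), or in 14 of 24 removals of 1 pool. Without tubule AL pool 4 it was 0.31 (adjusted p = 0.196). With the 4 earlier probes alone the differences of muscle from germ line, gut and heart were no longer called, and gut minus muscle was −0.06. With the median of probes those from germ line (adjusted p = 0.109) and gut (0.148) were lost, and that from gut also after cyclic loess (0.147) and in 2 of 24 removals. For kis, germ line and neuron each differed from fat body, gut and tubule, by 0.44 to 0.59 log2 units, and germ line and neuron were not called different from each other. Germ line minus tubule was −0.21 (adjusted p = 0.125) with the 4 earlier probes, and neuron minus tubule −0.27 (adjusted p = 0.0562) without neuron DR pool 5.

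Levels were also ordered between tissues after all 82 arrays were brought to 1 distribution, a scale on which the tissues' values can be set side by side. This assumes that the tissues share 1 distribution of intensities. On this scale SuUR was highest in the germ line on both foods, while on the deposited scale its AL mean was 13.37 in neuron and 13.14 in germ line. Its germ line mean on the shared scale was 12.78 ± 0.36 on DR and 13.09 ± 0.12 on AL (SD, n = 6 each). Set against the mean of the other 6 tissues over both foods, the germ line stood 1.25 higher (SE 0.0712, adjusted p = 6.70e-27), or 2.38-fold. This lead over the mean of the others was 1.37 on the deposited scale and 0.69 with arrays centred on their medians, and was called on both.

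The order of SuUR differed between foods below the germ line. On DR the germ line was followed by fat body at 11.60 ± 0.13, heart at 11.58 ± 0.17, gut at 11.55 ± 0.26, neuron at 11.43 ± 0.30, tubule at 11.20 ± 0.08 and muscle at 10.93 ± 0.29 (n = 6 each). Of these neighbours, the gap of 1.18 between germ line and fat body was the 1 that was called (adjusted p = 6.96e-13). On AL the neuron, at 12.89 ± 0.09 (n = 5), lay next to the germ line, and the gap of 0.20 between them was not called. A gap of 0.95 (adjusted p = 4.31e-08) set it apart from heart at 11.95 ± 0.07 (n = 5). Muscle at 11.95 ± 0.13, gut at 11.89 ± 0.12, tubule at 11.63 ± 0.45 and fat body at 11.58 ± 0.14 followed without a called gap. This tubule mean includes AL pool 4, at 12.51. By medians, tubule at 11.48 lay below fat body at 11.57. The highest and lowest tissue means differed 3.61-fold on DR and 2.85-fold on AL.

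HDAC3 levels spanned the tissues less widely on AL. On DR the order was gut at 11.11 ± 0.17, fat body at 10.81 ± 0.10, tubule at 10.76 ± 0.04, neuron at 10.41 ± 0.21, muscle at 10.29 ± 0.27, heart at 10.19 ± 0.23 and germ line at 9.99 ± 0.46 (n = 6 each). The gaps between gut and fat body (0.30, adjusted p = 0.0371) and between tubule and neuron (0.34, adjusted p = 0.00989) were called. On AL it was neuron at 11.56 ± 0.08 (n = 5), gut at 11.32 ± 0.06, fat body at 11.12 ± 0.06, germ line at 11.06 ± 0.23, tubule at 10.98 ± 0.23, muscle at 10.86 ± 0.13 and heart at 10.73 ± 0.08 (n = 5). No neighbours in that order differed. The span was 2.17-fold on DR and 1.78-fold on AL, and the neuron had rank 4 on DR and rank 1 on AL. Over both foods gut was 0.48 above the mean of the other 6 tissues (SE 0.065, adjusted p = 6.27e-10). Without scaling between tissues the germ line stood above the others for HDAC3, by 0.32, and fat body below, by 0.24, whereas on the shared scale they were −0.32 and 0.19.

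kis was highest in the germ line on both foods on the shared scale. On DR the order was germ line at 13.60 ± 0.38, heart at 13.39 ± 0.04, muscle at 13.26 ± 0.11, neuron at 13.24 ± 0.45, gut at 13.16 ± 0.13, tubule at 12.96 ± 0.04 and fat body at 12.88 ± 0.12 (n = 6 each), and no neighbours differed. On AL it was germ line at 14.16 ± 0.11, neuron at 13.68 ± 0.08 (n = 5), muscle at 13.47 ± 0.04, heart at 13.47 ± 0.05 (n = 5), gut at 13.06 ± 0.09, tubule at 12.93 ± 0.22 and fat body at 12.77 ± 0.06. The gaps of 0.49 below the germ line (adjusted p = 0.000223) and of 0.40 between heart and gut (adjusted p = 0.0024) were called. The span was 1.65-fold on DR and 2.62-fold on AL. The neuron mean on DR includes pool 5, at 12.32. By medians on DR, neuron was at 13.40, heart at 13.40 and muscle at 13.29. Over both foods the germ line was 0.69 above the other tissues (SE 0.0597, adjusted p = 1.40e-17). With arrays centred on their medians this was −0.02 (adjusted p = 0.701), so the lead was not seen with that scaling.

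**Figure D3:**
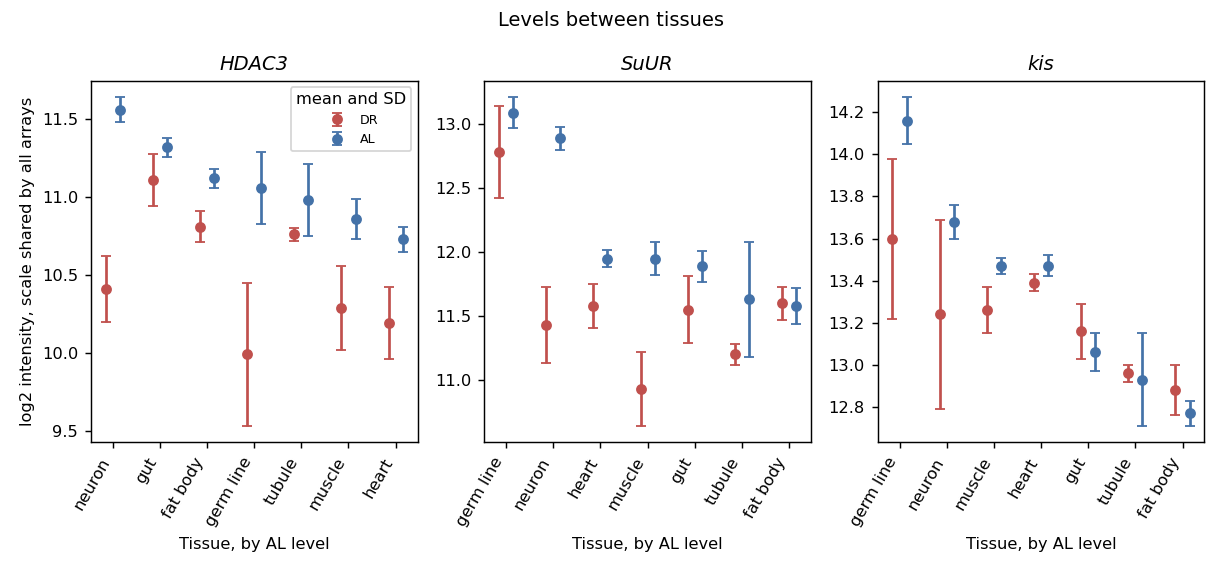
Mean log2 intensity (vertical axes, scale shared by all 82 arrays) of HDAC3, SuUR and kis in each tissue (horizontal axes, in the order of the AL means). Points are means of 5 or 6 pools with DR left of AL, and bars are SDs. On this scale SuUR is highest in the germ line on both foods, and its neuron mean lies near that of the germ line on AL and far below it on DR.

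Over all 21 pairs of tissues on this scale, HDAC3 levels differed in 16 pairs on DR and 11 on AL, SuUR levels in 13 on DR and 13 on AL, and kis levels in 12 on DR and 16 on AL. Over all transcripts 68.7% of such tests on DR and 60.5% on AL were called. Tissues set against the mean of the other 6 gave 3 higher and 3 lower calls of 7 for HDAC3, 2 and 4 for SuUR, and 3 and 3 for kis. Such tests called 35.2% higher and 40.9% lower over all transcripts.

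The 8 probes of each transcript did not move alike. They are named by a number read here as the position along the transcript, from 236 to 1076 for HDAC3, 1473 to 2597 for SuUR and 14487 to 15874 for kis. Each probe was tested in 1 model of all 132998 gene probes. Over the 56 combinations of probe and tissue, 29 fell for HDAC3, 27 for SuUR and 13 for kis, and 1 rose, for kis in fat body. Of all gene probes, between 12.1% (gut) and 32.0% (neuron) fell in a tissue, and 15.3% rose in fat body.

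In the neuron all 8 HDAC3 probes fell, with changes of −1.50 to −0.74, and all 8 SuUR probes fell, with changes of −2.06 to −0.73. Of the 8 kis probes 6 fell there, where 32.0% of gene probes fell. The germ line had 5 falls for HDAC3, 2 for SuUR and 5 for kis, with 27.5% of gene probes falling. In muscle the counts were 5, 7 and 1 for HDAC3, SuUR and kis (20.6% of gene probes), and in heart 6, 1 and 1 (19.3%). In fat body they were 3, 0 and 0 (13.2%), in gut 0, 3 and 0 (12.1%), and in tubule 2, 6 and 0 (13.9%).

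The HDAC3 probe changes were most spread in germ line, muscle and heart, from −1.49 to −0.12, −1.03 to 0.03 and −0.83 to 0.13. In the germ line the probe at 236 averaged 9.57 ± 0.81 on DR and 11.06 ± 0.24 on AL (SD, n = 6 each), a change of −1.49 (adjusted p = 2.22e-08). The probe at 898 averaged 11.66 ± 0.18 on DR and 11.77 ± 0.11 on AL, a change of −0.12 (adjusted p = 0.445). The probes at 521 and 1076 changed by −1.20 and −1.19, and the probe at 374 by −0.13. Across the 8 probes the change correlated with the probe's AL level at r = 0.80 in germ line, 0.87 in heart and 0.89 in muscle, where the dimmer probes changed more. It was 0.49 in neuron, 0.31 in gut, −0.04 in fat body and −0.60 in tubule. The probes share arrays and a transcript, and these correlations are descriptions.

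SuUR probes later in the transcript changed more in muscle and neuron. In muscle the probe at 1823 averaged 11.71 ± 0.16 on DR and 11.82 ± 0.15 on AL, a change of −0.12 (adjusted p = 0.728). The probe at 2576 averaged 8.82 ± 0.76 on DR and 10.57 ± 0.18 on AL, a change of −1.75 (adjusted p = 2.57e-07). In the neuron the probe at 1952 changed by −0.73 and the probe at 2597 by −2.06. The correlation of change with position over 8 probes was −0.81 in germ line, −0.79 in muscle and −0.76 in neuron. In fat body it was −0.05, and it was above 0 in heart (0.13), tubule (0.23) and gut (0.59). The SuUR change correlated with the probe's AL level at r = 0.77 in muscle, 0.64 in heart, 0.31 in neuron and 0.16 in germ line. That correlation was 0.11 in tubule, 0.03 in gut and −0.31 in fat body. In muscle these probes do not separate position from level. The SuUR fall in heart came with 1 called probe, at 1823, which changed by −1.66.

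For kis the first probes, at 14487 and 14656, changed least in both tissues with a fall. In the germ line the probe at 14487 averaged 15.26 ± 0.12 on DR and 15.17 ± 0.21 on AL, a change of 0.09 (adjusted p = 0.392). The probe at 15436 averaged 11.74 ± 0.78 on DR and 12.85 ± 0.21 on AL, a change of −1.11 (adjusted p = 2.90e-05). These first probes were also the brightest, and change correlated with AL level at r = 0.86 in germ line and 0.80 in neuron. With position it correlated at r = −0.78 in germ line and −0.70 in neuron, so these probes do not separate position from level. The gene has 6 RefSeq transcripts, and the 8 probes measure the stretch between those positions alone.

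**Figure D4:**
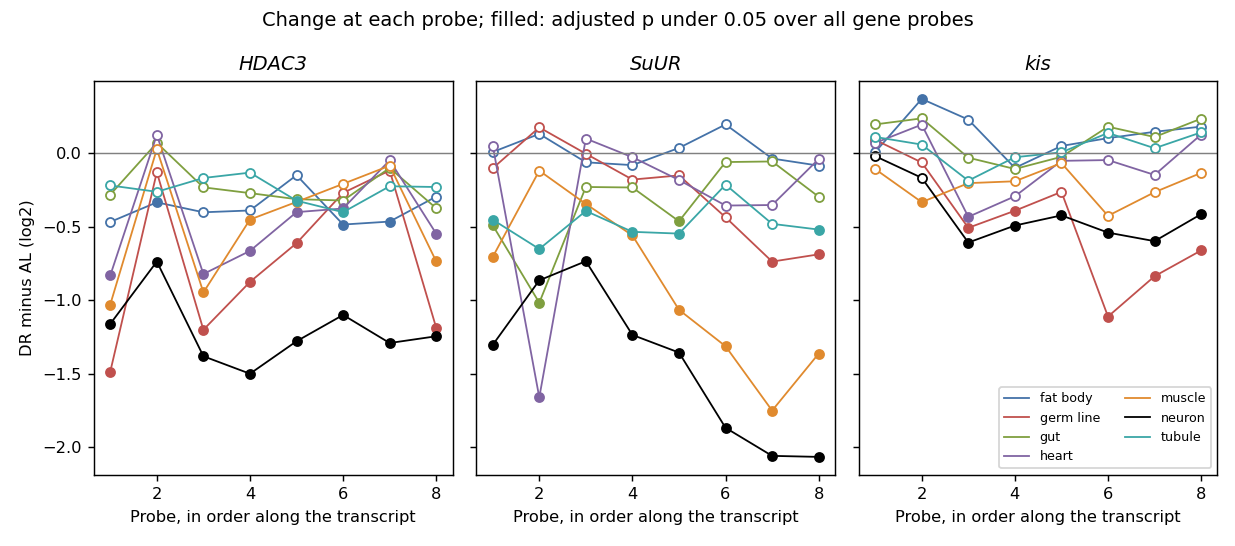
Change (vertical axis, DR minus AL, log2) at each of the 8 probes of HDAC3, SuUR and kis, in order along the transcript (horizontal axes), with 1 line per tissue. Filled points have an adjusted p below 0.05 over all gene probes. The neuron lines of HDAC3 and SuUR are filled at all 8 probes, and the muscle line of SuUR falls towards the later probes.

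Array properties also moved with food. A gap was taken between the mean level of transcripts in upper-middle level deciles and that in the lowest, with the brightest deciles left out. By exact permutation tests adjusted over 7 tissues, this gap between transcripts was narrower on DR in germ line (2.68 on DR, 3.28 on AL, adjusted p = 0.0114), heart (3.59 and 4.06, adjusted p = 0.00758) and muscle (3.31 and 3.79, adjusted p = 0.0101). By the same test it was narrower in gut (5.00 and 5.16, adjusted p = 0.0212) and tubule (5.29 and 5.36, adjusted p = 0.00758). In the neuron it was 4.65 on DR and 4.78 on AL (adjusted p = 0.225, exact permutation). The slope of intensity with probe position was higher on DR in heart (0.519 on DR and 0.441 on AL per kb, adjusted p = 0.00758), tubule (0.513 and 0.467, adjusted p = 0.00758) and fat body (0.407 and 0.387, adjusted p = 0.0152), by the same exact permutation test. In the neuron it was 0.617 on DR and 0.551 on AL (adjusted p = 0.152, exact permutation). The median of the control probes in heart was 5.20 on DR and 5.52 on AL (adjusted p = 0.0152, exact permutation). In germ line DR pools 1 to 6 the gap was 2.208, 2.295, 2.473, 2.777, 3.048 and 3.285, against 3.154 to 3.346 over the AL pools. Pool 6, the array least like its group, thus had a gap within the AL range. Among the germ line DR pools, all 3 genes were highest in pool 6 and next highest in pool 5. The part of these properties in the changes of the 3 genes was not tested.

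HDAC3 shares its whole span in the annotation with CG45100, which is named as the upstream open reading frame of HDAC3, and SuUR likewise with CG45101, so probes cannot tell the products of these pairs apart. kis overlaps 7 annotated genes, among them lncRNAs, snoRNA:kis-a and mir-965. Of the 48 other chromatin genes listed for comparison, 1 was named on the array, the histone H4 gene His4r (FBtr0082962), whose signal may also come from near-identical H4 copies. It fell in 1 of 7 tissues and rose in 1. His4r averaged 13.21 on DR and 13.73 on AL in the germ line, a change of −0.52 (SE 0.0909, adjusted p = 1.42e-06). In fat body it averaged 14.86 on DR and 14.55 on AL, a change of 0.31 (SE 0.0909, adjusted p = 0.0047). In the neuron, where HDAC3 and SuUR changed most, the His4r change was 0.03 (adjusted p = 0.782).

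The transcripts whose levels over the 14 group means were most like those of the 3 genes carry no name here. They were FBtr0079901 (r = 0.974) and FBtr0075510 (r = 0.973) for HDAC3, FBtr0074850 (r = 0.977) and FBtr0077018 (r = 0.968) for SuUR, and FBtr0078665 (r = 0.967) and FBtr0084570 (r = 0.962) for kis. Over the same 14 group means the correlation was 0.77 between SuUR and kis, 0.27 between HDAC3 and SuUR and −0.06 between HDAC3 and kis. For the DR minus AL changes over the 7 tissues it was 0.83 between HDAC3 and kis, 0.71 between HDAC3 and SuUR and 0.56 between SuUR and kis. The group means and changes share arrays and scale, and the values are descriptions.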

How the data were processed

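Each of the 82 arrays held translating RNA of 1 pool. Per the labels' protocols, the authors amplified FLAG-pulldown RNA and hybridised it, Cy3-labelled, to single-colour arrays, with pulldown, amplification and labelling randomized. The deposited values are linear intensities of 137098 probes. Their sorted log2 values differed by at most 0.0379 within a tissue and by 2.67 over all arrays, so the deposited intensities were taken as quantile normalized within tissue. The sources used here do not give the scanner, its software, a background correction or the release of the annotation.

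Intensities were put on the log2 scale and averaged over a transcript's probes, with no filter. One model of the 14 groups was fitted with limma 3.58.1 (R 4.3.3, version 1.17.8 of data.table, 68 residual degrees of freedom), with two-sided tests and Benjamini-Hochberg adjustment over all transcripts of a contrast. Levels between tissues used quantile normalization over all arrays. Scripts were tested on simulated data. Tables and figures used Python 3.11.15, numpy 2.4.6, pandas 2.3.3 and matplotlib 3.10.9. Names came from RefSeq (assembly Release 6 plus ISO1 MT), whose entries paired 16 transcripts with 1 gene and 28 with several. The rule for named genes took HDAC3, SuUR, kis, any named gene of the chromatin list, and the 2 transcripts most correlated with each over group means. The members and lists were chosen with earlier results of these data known. Array number limits the precision. Alternatives covered scaling, probe summary, filters, array weights, the pool number as a block and single pools left out.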

Additional observations from a re-analysis of the deposited data

Results flagged for a closer look

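In tubule AL, pool 4 lay far above the other 5 pools for all 3 genes. Its log2 level was 11.50 for HDAC3 (next highest 10.94), 12.59 for SuUR (next highest 11.70) and 13.48 for kis (next highest 12.98). In gut AL, pool 5 had the highest kis level, 13.29, with the next at 13.10. In neuron DR, pool 5 had the lowest kis level, 12.76, with the next at 13.76. These are 5 flagged values in 42 groups tested by Dixon's rule, and chance alone flags about 1 in 20 groups.

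The food effect differed between the 7 tissues for each gene, with an adjusted p of the F test of 4.49e-08 for HDAC3, 1.81e-09 for SuUR and 0.000248 for kis.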

How the results depend on the processing

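For the changes per tissue, their means and F tests, and the levels of a tissue against the other 6, 436 of 489 alternative values kept their direction and side of the threshold, and 955 of 984 removals of 1 pool did. For the 26 called differences between 2 tissues' changes, 243 of 260 alternatives and 581 of 606 removals kept the call, and 11 differences lost it at least once. All 159 counts of calls per tissue stayed within 1.5 times the reported count. The cause of the changes below was not tested. The limits are the number of pools, a scale between tissues that rests on an assumed shared distribution, 8 probes over part of each transcript, and deposited values whose earlier processing is not given. The array weights were estimated with a warning that the convergence tolerance was not reached.

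Values below are log2 differences, DR minus AL unless a level is named. With quantile normalization over all arrays, HDAC3 in tubule was −0.22 (adjusted p = 0.155, no longer called) and SuUR in germ line −0.31 (0.0269, now called). After cyclic loess, SuUR in germ line was −0.0068 (0.966), HDAC3 in heart was −0.17 and SuUR in heart −0.12, both no longer called. With the median of probes, HDAC3 in fat body (−0.22) and tubule (−0.23) and SuUR in gut (−0.36) and heart (−0.12) were lost and HDAC3 in gut (−0.29) was gained. With the 4 later probes, HDAC3 in gut (−0.28) and SuUR in germ line (−0.50) were gained, and SuUR in gut (−0.22) and heart (−0.23) were lost. With the 4 earlier probes, HDAC3 in tubule (−0.19) was lost, kis in muscle (−0.21) was gained, kis in tubule was −0.0094, and SuUR gut minus muscle was −0.060. With array weights, HDAC3 in gut (−0.21), SuUR in germ line (−0.45) and kis in gut (0.17), muscle (−0.21) and tubule (0.12) were gained, and SuUR in fat body was −0.031. With each tissue fitted alone, HDAC3 in gut (−0.23) and kis in muscle (−0.21) were gained, and kis in neuron (−0.41) and HDAC3 in tubule (−0.24) were lost. In these fits the adjusted p was 0.00204 for HDAC3 and 0.0129 for kis in germ line. In neuron it was 3.95e-06 for HDAC3 and 4.57e-06 for SuUR. These 4 values were higher than in the model of all arrays, while that for HDAC3 in fat body (0.000795) was lower. Leaving out germ line DR pool 6, muscle DR pool 4 and neuron DR pool 5 together, a choice made after seeing the data, gained HDAC3 in gut (−0.23), SuUR in germ line (−0.35) and kis in muscle (−0.24).

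Levels are of a tissue minus the mean of the other 6. On the deposited scale, HDAC3 was −0.24 in fat body and 0.32 in germ line, SuUR −0.64 in heart and kis −0.46 in heart. Also on that scale, kis on AL was 0.20 for gut minus heart, and HDAC3 on DR 0.15 for neuron minus tubule. With arrays centred on the median, SuUR was −0.023 in fat body, −0.044 in gut and −0.21 in heart. kis was then −0.036 in fat body, −0.021 in germ line, 0.0086 in gut, −0.031 in heart and 0.18 in muscle, and on AL −0.15 for germ line minus neuron. With the median of probes, SuUR was −0.19 in gut and kis 0.092 in heart. With the 4 later probes, HDAC3 was 0.088 in fat body and −0.10 in germ line, and SuUR −0.023 in gut and 0.17 in heart. With the 4 earlier probes, SuUR was −0.39 in heart and 0.32 in muscle. With array weights, SuUR was −0.051 in gut and −0.10 in heart and kis 0.089 in muscle. Pairs of tissues with different changes rose to 14 for HDAC3 and 15 for kis with array weights, and to 12 for kis without the 3 arrays. HDAC3 pairs with different AL levels numbered 19 on the deposited scale, 17 centred, 18 with weights and 7 with the 4 earlier probes.

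With 1 pool left out, SuUR changes ranged from −0.036 to 0.061 in fat body, −0.35 to −0.21 in germ line, −0.42 to −0.27 in gut and −0.36 to −0.28 in heart. HDAC3 changes ranged from −0.26 to −0.18 in gut, called without DR pool 5, and from −0.28 to −0.14 in tubule. The SuUR gut level ranged from −0.20 to −0.12.

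The labels tie no shared batch to a pool number, and not every same-numbered pair correlated above 0.1, so the numbers were not taken to pair the samples. Over 40 same-numbered pairs of DR and AL pools the correlation of deviations ran from −0.443 to 0.773, with 21 over 0.1, and 13 of the 40 AL pools matched the DR pool of their own number best, among 6 DR pools each, a hint from the data and not from the design. With the replicate block, SuUR in germ line was −0.26 (adjusted p = 0.037, now called), and no other reported change or level changed its call.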
